A study of Mus musculus with 12 samples.

Results

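The glucocorticoid receptor gene Nr3c1, the mineralocorticoid receptor gene Nr3c2 and 7 genes known to respond to these receptors (Fkbp5, Sgk1, Tsc22d3, Zbtb16, Plin4, Errfi1 and Cdkn1a) were followed in ribosome-bound RNA of cortical astrocytes. They were chosen by name, and all 9 were found among the 52550 features of the count table. Astrocytes carried an eGFP tag on their ribosomes in both genotypes, driven by the astrocyte promoter Aldh1l1, and tagged ribosomes were pulled from somatosensory cortex with an antibody against eGFP (translating ribosome affinity purification, TRAP). The groups were Fmr1-/y males (knockout) and Fmr1+/y males (wild type) of FVB/C57 strain at postnatal day 40. Each group had 3 libraries, called here KO14, KO16 and KO18 for the knockout and WT13, WT15 and WT17 for the wild type after the numbers in their titles. Fmr1 encodes FMRP, the RNA-binding protein missing in fragile X syndrome. The series asks how its loss changes astroglial RNA. The labels do not say whether a library came from 1 animal or from pooled animals, so every p-value measures the spread between these libraries only.

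Corticosteroid receptors are transcription factors switched on by hormone. Corticosterone, the main glucocorticoid of mice, enters the cell and binds receptor held in the cytosol by Hsp90 and its co-chaperones, and the loaded receptor moves to the nucleus and binds DNA at glucocorticoid response elements. The mineralocorticoid receptor binds corticosterone more tightly than the glucocorticoid receptor does, so the latter fills mainly at the daily hormone peak and in stress. Astrocytes express the glucocorticoid receptor, and genes such as Fkbp5, Sgk1 and Tsc22d3 are widely used as readouts of its activity.

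The response element is a pair of 6-letter arms facing each other across 3 free bases. Its full 15-letter form, AGAACA then 3 bases of any kind then TGTTCT, was searched on both strands in the RefSeq promoter windows of build GRCm38.p6, each running from 250 bases before a transcription start to 50 bases after it. It stood in 3 of 32851 windows (0.00913%), and 1 of these 3 belongs to Sgk1. Gene positions below are of the same build. Windows were read for 7 of the 9 genes, 16 windows in all, and none was read for Nr3c1 or Zbtb16. The Sgk1 window is shown for this match, and because Sgk1 had the second-widest spread between libraries of the 9 genes. The bases before the start lie at chr10:21993640-21993889, plus strand, within the Sgk1 gene (chromosome 10, 21882184 to 21999903), 1 of 6 start sites listed for it. Capitals mark the element, at chr10:21993701-21993715, which begins 189 bases before the start.

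Sgk1: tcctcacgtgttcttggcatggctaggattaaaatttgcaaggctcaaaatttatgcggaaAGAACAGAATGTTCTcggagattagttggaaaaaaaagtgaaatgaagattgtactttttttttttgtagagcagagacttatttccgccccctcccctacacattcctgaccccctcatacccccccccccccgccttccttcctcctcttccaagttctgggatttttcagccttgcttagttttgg

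The arm AGAACA alone, which is part of the full form, stood in 19% of all windows on either strand. It stood in 4 of the 16 windows read for these genes (25%), at Sgk1 and Tsc22d3. A letter match is a description and does not show binding. None of the 22 windows of 18 other response genes held the full form.

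The libraries held between 10953958 and 22397202 counts. Levels below are CPM, counts scaled to a common library size with TMM factors, which correct for differences in library make-up. KO14 and KO16 had 35.6% and 45.1% of their counts on 3 features that collect ribosomal RNA reads, against 0.892% to 7.45% in the other 4 libraries. Fmr1 ranged from 1.32 to 4.32 CPM over the knockout libraries and from 31.6 to 38.4 CPM over those of the wild type. Astrocyte markers were abundant, with a median over 12 markers of 574 CPM, against 115 CPM for 12 neuron, 57.0 CPM for 10 oligodendrocyte and 3.65 CPM for 10 microglia markers. Titles also carry a month and day, whose meaning the labels do not give. Month 5 holds WT13, KO14 and KO16, and month 6 holds WT15, WT17 and KO18.

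Neither receptor gene differed between genotypes beyond the spread of the libraries. Nr3c1 measured 126 CPM in WT13, 138 in WT15 and 122 in WT17 and 133 CPM in KO14, 118 in KO16 and 101 in KO18. The groups overlapped, with the lowest level in KO18. Its knockout mean was 117 ± 16.2 CPM, against a wild-type mean of 129 ± 8.49 CPM (SD over 3 libraries in both). The log2 fold change of Nr3c1 was -0.13 (SE 0.15) with a 95% interval from -0.47 to 0.21, so a knockout level from 0.720 to 1.16 times the wild type lay inside it (edgeR's quasi-likelihood test, adjusted p = 1.00; exact permutation p = 0.4). Nr3c1 had the tightest spread of the 9 genes, with its highest library 1.37-fold above its lowest. Its fold change still depended on single libraries, at -0.03 without KO18, -0.07 without WT15 and -0.23 without KO14.

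Nr3c2 (chromosome 8, 76898083 to 77245012) measured 32.1 CPM in WT13, 32.9 in WT15 and 42.1 in WT17 and 26.9 CPM in KO14, 34.8 in KO16 and 26.6 in KO18. KO14 and KO18 lay below every wild-type library, while KO16 lay between WT15 and WT17. The log2 fold change of Nr3c2 was -0.28 (SE 0.17; 95% interval -0.68 to 0.11; edgeR adjusted p = 1.00, exact permutation p = 0.3). The direction held in all 14 alternative analyses, with values from -0.43 to -0.15 (-0.15 without WT17), and none of them called the gene. The authors' deposited table, which carries 12 entries, gives Nr3c2 an unadjusted p of 0.0308 and an adjusted p of 0.627. Set against Nr3c1 in the same library, the Nr3c2 level was 20.2% of the Nr3c1 level in KO14, 29.4% in KO16 and 26.4% in KO18 and 25.4% in WT13, 23.8% in WT15 and 34.6% in WT17. These percentages are not corrected for transcript length, and only their difference between libraries is meaningful. The 2 groups overlapped (exact permutation p = 0.6), and a difference in the balance of the receptors was not detectable with these libraries.

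**Figure D1:**
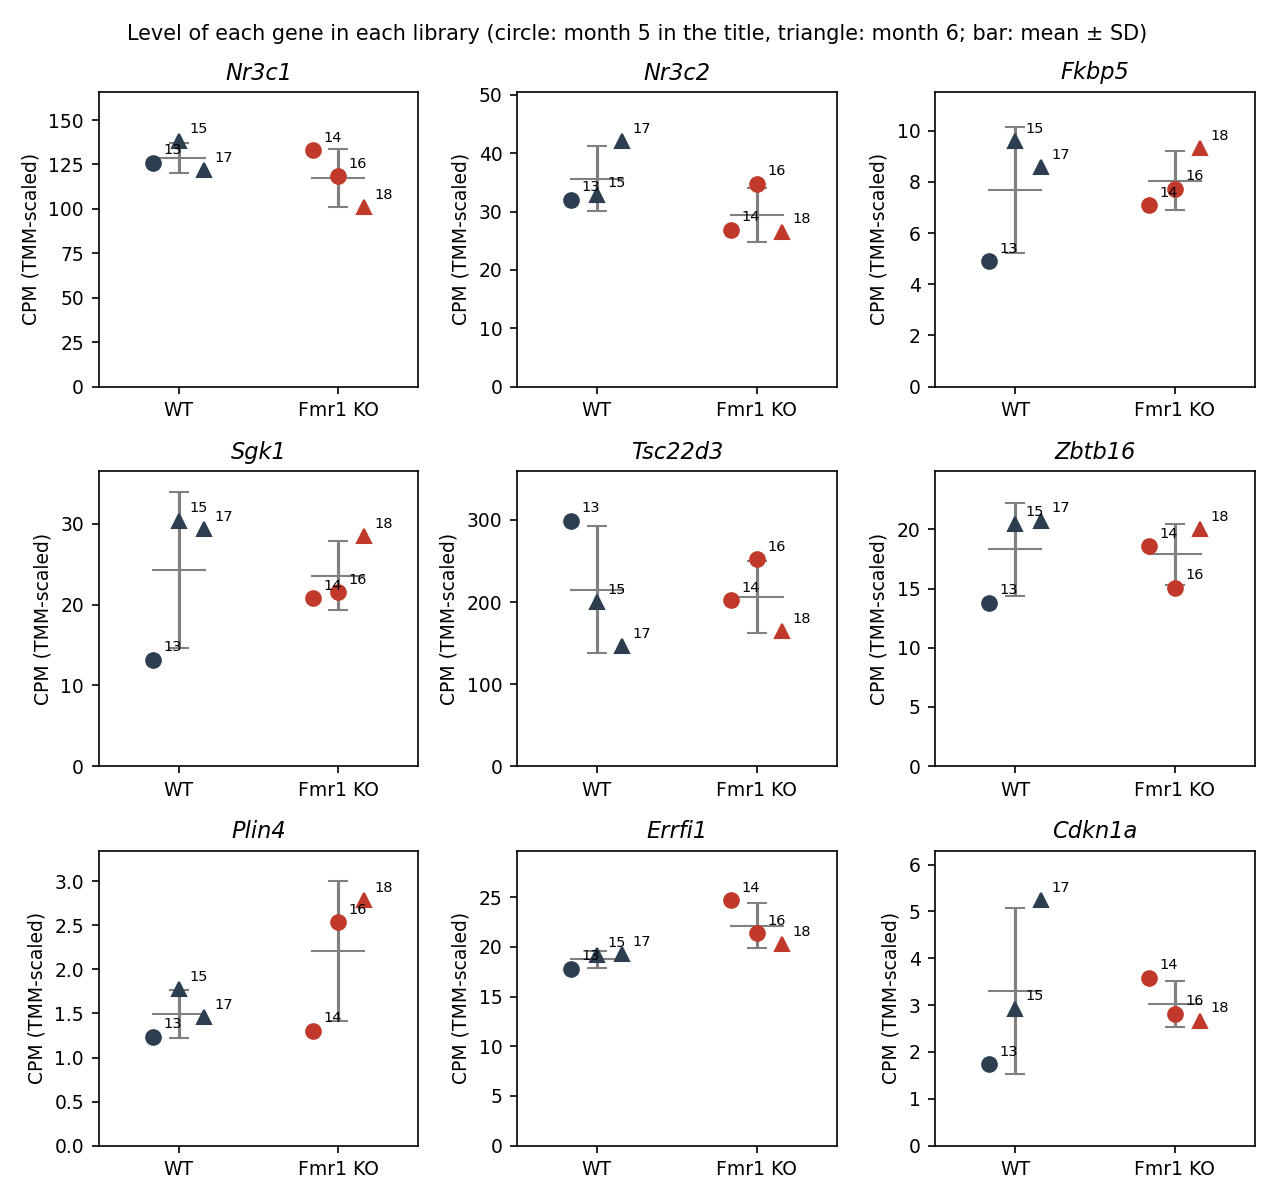
TMM-scaled CPM of the 9 genes (vertical axes, starting at 0) in 3 wild-type and 3 Fmr1 knockout libraries, each point a library with its number, circles for month 5 and triangles for month 6 in the title, grey bars for the mean and SD. Errfi1 is the gene whose knockout libraries, 20.3 to 24.7 CPM, all lie above the wild-type libraries, 17.8 to 19.2 CPM. WT13 is lowest for 6 of the 7 response genes, where 20.4% of all genes tested are lowest in it, and highest for Tsc22d3, where 19.6% are highest in it.

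Fkbp5 (chromosome 17, 28398753 to 28486149) encodes FKBP51, a co-chaperone that lowers the hormone affinity of the glucocorticoid receptor and is itself induced by it, a short negative feedback loop. Its level was 4.90 CPM in WT13, 9.60 in WT15 and 8.57 in WT17 and 7.10 CPM in KO14, 7.74 in KO16 and 9.32 in KO18. The knockout libraries fell inside the range of the wild type, whose own extremes differed 1.96-fold. Fkbp5 had a log2 fold change of 0.07 (SE 0.28; 95% interval -0.58 to 0.72; edgeR adjusted p = 1.00). Without WT13 it was -0.17, and without KO18 it was -0.05.

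Sgk1 encodes a kinase that raises ion channel and transporter activity at the membrane and is induced by both receptors. It measured 13.2 CPM in WT13, 30.4 in WT15 and 29.4 in WT17 and 20.8 CPM in KO14, 21.5 in KO16 and 28.5 in KO18. WT13 stood alone at the low end, 2.30-fold under WT15, and the knockout libraries lay between these. Sgk1 had a log2 fold change of -0.04 (SE 0.31; 95% interval -0.74 to 0.67; edgeR adjusted p = 1.00), and without WT13 it was -0.33. Zbtb16 (chromosome 9, 48651797 to 48836225) encodes the zinc finger repressor PLZF, and it measured 13.8 CPM in WT13, 20.4 in WT15 and 20.7 in WT17 and 18.6 CPM in KO14, 15.1 in KO16 and 20.04 in KO18. Its log2 fold change was -0.03 (SE 0.21; 95% interval -0.50 to 0.45; edgeR adjusted p = 1.00), with overlapping groups, and without WT13 it was -0.19.

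Tsc22d3 (chromosome X, 140539528 to 140600522) encodes GILZ, a leucine zipper protein that carries part of the anti-inflammatory action of glucocorticoids. In contrast to the other response genes it was highest in WT13. Its level was 299 CPM in WT13, 200.1 in WT15 and 146 in WT17 and 202 CPM in KO14, 252 in KO16 and 165 in KO18. The wild type alone spanned a 2.05-fold range that held every knockout library. Tsc22d3 had a log2 fold change of -0.06 (SE 0.27; 95% interval -0.68 to 0.56; edgeR adjusted p = 1.00), and it was 0.25 without WT13.

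Errfi1 (chromosome 4, 150853796 to 150868889) was the 1 gene of the 9 whose groups did not overlap. It encodes MIG6, a feedback inhibitor of the EGF receptor family, and is induced by growth factors as well as glucocorticoids. It measured 24.7 CPM in KO14, 21.4 in KO16 and 20.3 in KO18 and 17.8 CPM in WT13, 19.2 in WT15 and 19.2 in WT17, with means of 22.1 ± 2.29 and 18.7 ± 0.821 CPM (SD, n = 3 each). The gap was narrow, from 20.3 CPM in KO18 to 19.2 CPM in WT17. Of all 14990 genes tested, 6.2% had no overlap between the genotypes and 2.95% had every knockout library higher, and 1 gene of 9 is to be read against those shares. The log2 fold change of Errfi1 was 0.24 (SE 0.15; 95% interval -0.10 to 0.58; edgeR adjusted p = 1.00), and the exact permutation p of 0.1 is the smallest that 3 libraries against 3 can give. Its value lay between 0.14 and 0.30 in the 14 alternatives, at 0.15 without KO14 and 0.14 without KO14 and KO16.

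Plin4 and Cdkn1a rested on few counts, 16 to 72 and 20 to 137 per library. Plin4 (chromosome 17, 56100587 to 56109948) encodes perilipin 4, a coat protein of lipid droplets, and it measured 1.31 CPM in KO14, 2.53 in KO16 and 2.79 in KO18 and 1.23 CPM in WT13, 1.78 in WT15 and 1.45 in WT17. KO16 and KO18 were above every wild-type library, and KO14 was within the wild-type range. The log2 fold change of Plin4 was 0.57 (SE 0.41; 95% interval -0.36 to 1.5; edgeR adjusted p = 1.00), the largest of the 9 in size and not beyond the spread. Leaving out KO18 brought it to 0.34, leaving out KO14 to 0.84, and leaving out both KO14 and KO16 to 0.93, none of them called.

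Cdkn1a (chromosome 17, 29090979 to 29100722) encodes p21, an inhibitor of cyclin-dependent kinases and a target of p53 as well. It measured 3.59 CPM in KO14, 2.82 in KO16 and 2.67 in KO18 and 1.75 CPM in WT13, 2.92 in WT15 and 5.2 in WT17. Its spread was the widest of the 9 genes, 3.0-fold between WT13 and WT17, and the knockout libraries lay inside it. The log2 fold change of Cdkn1a was -0.13 (SE 0.42; 95% interval -1.10 to 0.84; edgeR adjusted p = 1.00). It was 0.37 without WT17 and -0.43 without WT13.

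**Figure D2:**
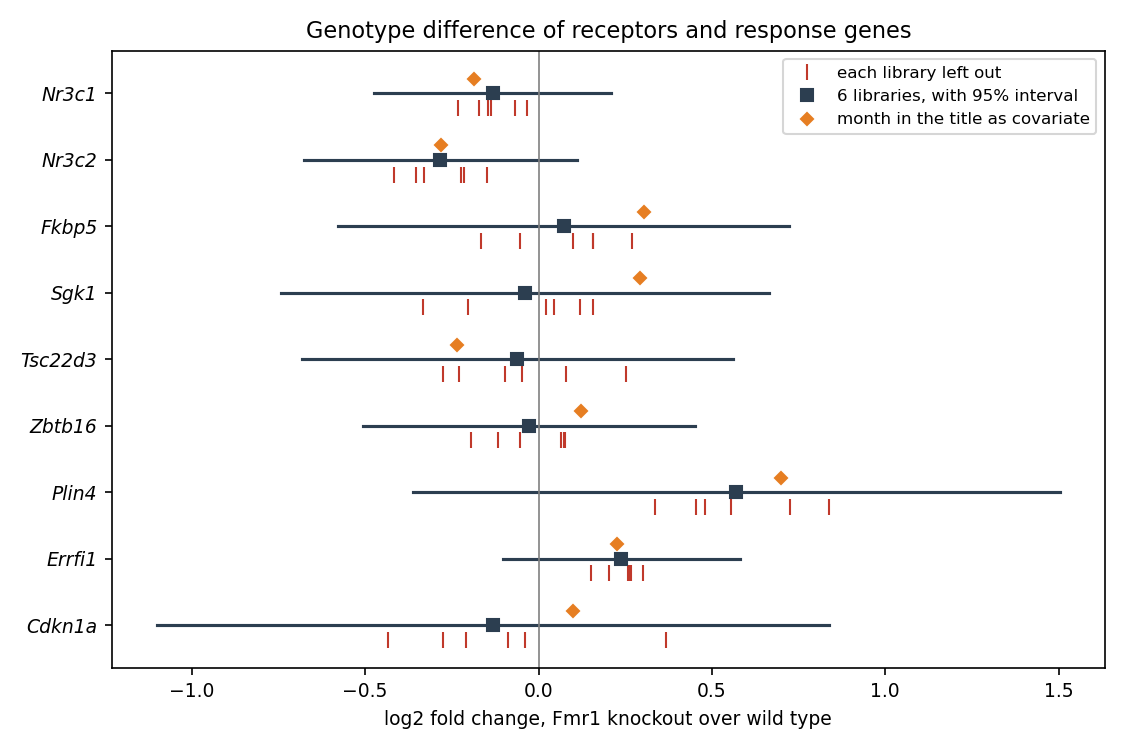
Log2 fold change of knockout over wild type for each of the 9 genes (horizontal axis), with squares and lines for the 6-library value and its 95% interval, red ticks for the values with each library left out and diamonds for the value with the month in the title as a covariate. Every interval includes 0, and the ticks of Nr3c1, Nr3c2, Plin4 and Errfi1 stay on 1 side of 0.

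Across the 9 genes, 3 had a log2 fold change above 0 and 6 below it, with a median of -0.04, against a median of -0.0019 over all genes tested, of which 50.4% were below 0. None of the 9 passed the adjusted threshold of 0.05 or an unadjusted p of 0.05 with edgeR. The quasi-likelihood test called 0 of 14990 genes (0%), and its unadjusted p was under 0.05 for 265 (1.77%). Fmr1 itself had an edgeR adjusted p of 0.2998. DESeq2 called 8 genes (0.0534% of those it tested) and none of the 9. The authors' deposited table lists all 9 with adjusted p from 0.627 to 1.00, where 85 of its 14843 features (0.573%) are under 0.05. The intervals above give the sizes of difference that the 6 libraries leave possible. The 2 entries deposited for each library gave repeat measurements of the same library: in 52 of 54 comparisons (9 genes, 6 libraries) they differed by at most 2 standard deviations of counting error, and both exceptions were Tsc22d3.

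Of the 7 response genes, 4 separated by the month in the title and overlapped between genotypes. This comparison was added after the values were seen. Sgk1, Fkbp5 and Zbtb16 were lower in all 3 month 5 libraries than in all 3 month 6 libraries, and Tsc22d3 was higher in all 3 (12.2% of all genes tested were lower in this way and 9.75% higher). Sgk1 averaged 18.5 ± 4.62 CPM in month 5 and 29.4 ± 0.970 CPM in month 6 (SD, n = 3 each), Fkbp5 6.58 ± 1.49 and 9.16 ± 0.532 CPM, Zbtb16 15.8 ± 2.49 and 20.4 ± 0.350 CPM, and Tsc22d3 251 ± 48.5 and 170.2 ± 27.4 CPM. The 3 libraries of month 6 were close to each other for Sgk1, Fkbp5 and Zbtb16, whichever genotype they held. Over all genes tested 21.9% had no overlap between the months, so the separation of 4 of these 9 genes is to be read against a broad difference between the months.

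With genotype and month in 1 fit, the month difference of Sgk1 was 0.80 on the log2 scale (SE 0.19; 95% interval 0.36 to 1.25), higher in month 6 in both genotypes: by 1.17 within the wild type and by 0.43 within the knockout. For Fkbp5 it was 0.61 (0.88 within the wild type, 0.33 within the knockout), for Zbtb16 0.41 (0.57 and 0.26) and for Tsc22d3 -0.63 (-0.81 and -0.46). Each value within a genotype has 1 library on 1 side, WT13 in month 5 for the wild type and KO18 in month 6 for the knockout. Unadjusted p were 0.00283 for Sgk1, 0.00614 for Tsc22d3, 0.0271 for Fkbp5 and 0.0423 for Zbtb16, where 18.8% of all genes were under 0.05, and the same edgeR fit gave them adjusted p of 0.103, 0.133, 0.214 and 0.249 and called 0 of 14990 genes (0%). DESeq2 called 1123 genes (8.48% of those it tested), among them Sgk1 (DESeq2 adjusted p = 0.0067) and Tsc22d3 (DESeq2 adjusted p = 0.0129). Without the filter on low counts, edgeR's test called the same pair among 6.44% of features. The month differences of the filtered edgeR fit were smaller without WT13: Sgk1 was at 0.43, Fkbp5 at 0.33, Zbtb16 at 0.25 and Tsc22d3 at -0.46. That fit called none of the 9 genes, and neither did the filtered edgeR fit of all 6 libraries. DESeq2 and the fit without the filter were not repeated without WT13.

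Within month 5, the 2 knockout libraries averaged 0.68 log2 units above WT13 for Sgk1, 0.59 for Fkbp5 and 0.28 for Zbtb16, and lay 0.41 below it for Tsc22d3 (-0.41). Within month 6, KO18 differed from the 2 wild-type libraries by -0.07, 0.04, -0.04 and -0.05 for the same genes. Each of these contrasts holds 1 library on 1 side and has no test. With month as a covariate the genotype difference was 0.29 for Sgk1, 0.30 for Fkbp5, 0.12 for Zbtb16 and -0.24 for Tsc22d3 (edgeR adjusted p of 0.971 to 0.978).

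Some markers of cell types separated by month as well. Of the 12 neuron markers 8 were lower in every month 5 library, with a summed level of 1304 to 2081 CPM in month 5 and 2213 to 2499 CPM in month 6. The same held for 4 of 10 oligodendrocyte markers (637 to 957 and 913 to 1472 CPM) and 4 of 5 oligodendrocyte precursor markers (18.2 to 24.8 and 28.8 to 38.2 CPM). Of the 12 astrocyte markers 6 were higher in every month 5 library (20756 to 22304 and 16428 to 19592 CPM). No marker in these 4 lists was at 0. Endothelial markers were also lower in month 5, at 10.4 to 13.5 against 15.997 to 18.5 CPM in sum, with 3 of 10 lower in every month 5 library. They were near the floor, with a median of 1.06 CPM. Of the microglia markers 0 of 10 were lower or higher in every month 5 library, and of the measured mural markers 1 of 4 was lower. These counts are to be read against all genes tested, of which 12.2% were lower and 9.75% higher in every month 5 library. Tsc22d3 was higher in the month in which those 6 astrocyte markers and the astrocyte sum were higher. Aldh1l1, whose promoter drives the tag, overlapped between the months, at 404 ± 27.1 CPM in month 5 and 436 ± 19.2 CPM in month 6. Sgk1, Fkbp5 and Zbtb16 were higher in the month with the higher neuron, oligodendrocyte precursor and endothelial levels. The summed oligodendrocyte level overlapped between the months, with KO14 at 957 CPM above WT15 at 913 CPM. The part of these markers in the result was not tested. In this pull-down, cell number, RNA per cell and RNA carried along from cells without the tag cannot be told apart.

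**Figure D3:**
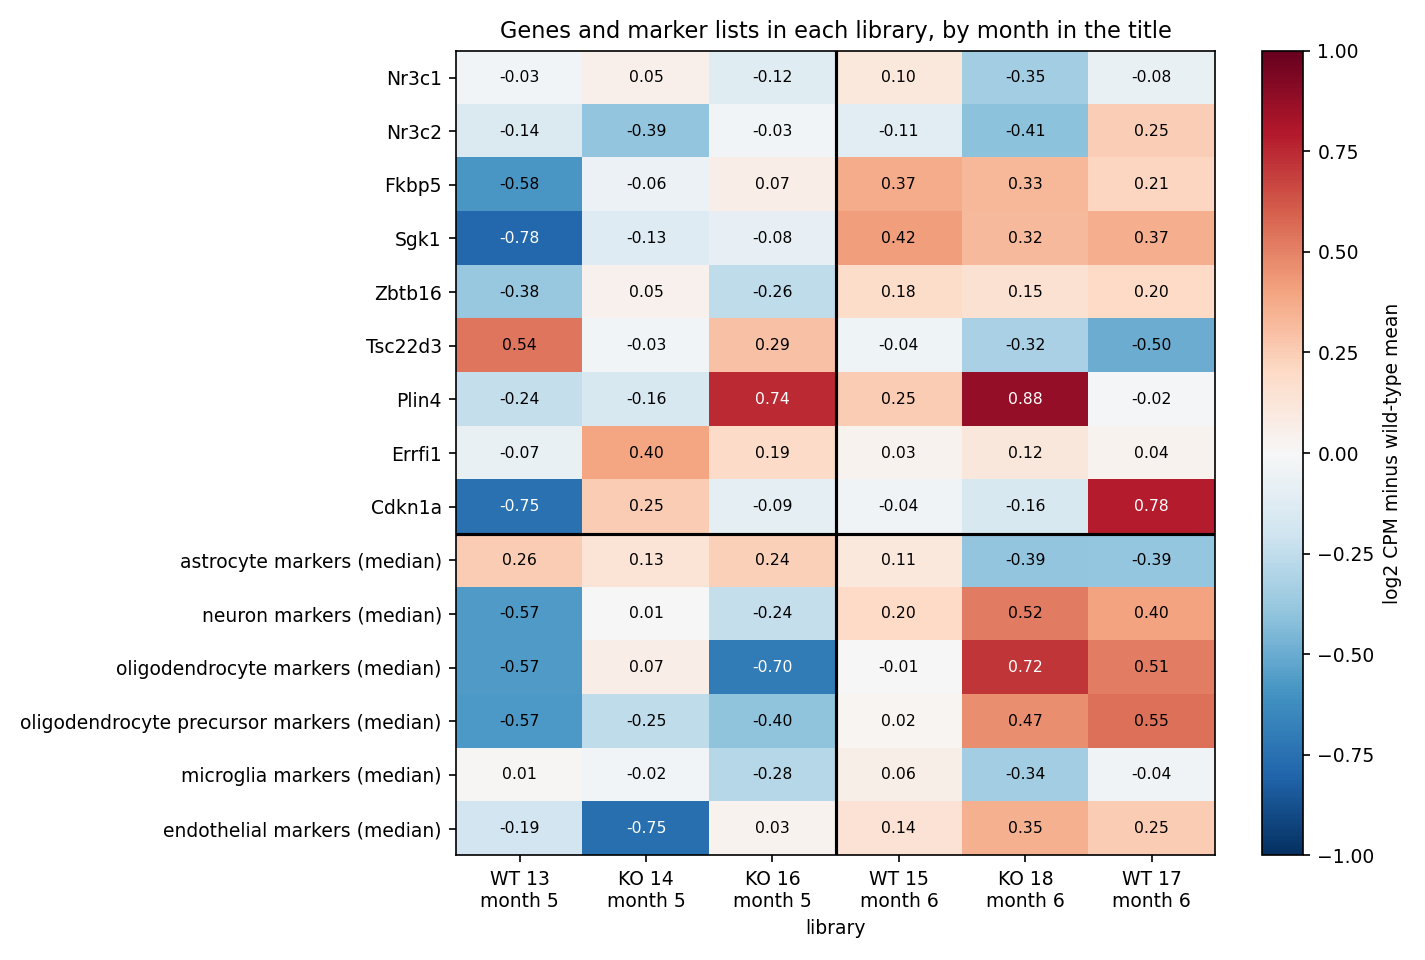
Log2 CPM minus the wild-type mean for each of the 9 genes and, below the line, the median of that value over each marker list, in the 6 libraries ordered by the date in the title (columns, month 5 left and month 6 right of the line). Sgk1 ranges from -0.78 in WT13 to 0.42 in WT15, and the neuron markers from -0.57 in WT13 to 0.52 in KO18.

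Among the 9 genes, Fkbp5 and Sgk1 had the most alike profiles, with a root mean square difference of 0.12 log2 units over the 6 libraries after centring each gene on its mean. Fkbp5 and Zbtb16 followed at 0.18, and Tsc22d3 and Cdkn1a were the least alike at 0.77. For the 5 genes with the widest spread, near profiles among genes averaging at least 5 CPM were those of Runx1t1 (0.06) and Cacna1d (0.08) for Sgk1, Cdkl1 (0.09) and Runx1t1 (0.09) for Fkbp5, Pole4 (0.05) and Serpinf1 (0.05) for Tsc22d3, Pnma2 (0.10) for Cdkn1a, and Sertm1 (0.16) and Ccdc9 (0.18) for Plin4. Runx1t1, a transcriptional corepressor, stood among the nearest for both Sgk1 and Fkbp5, at 4.26 CPM in WT13 and 8.55 CPM in KO18. These are descriptions over 6 libraries, drawn from all genes at that level.

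None of the receptors' chaperone genes was called between genotypes. Of 11 chaperone and co-chaperone genes, all measured, 5 were above and 6 below 0. Their median log2 fold change was -0.01, with 0 called (0 at an unadjusted p under 0.05). Hsp90ab1, the main Hsp90 gene, had a knockout mean of 628 ± 155 CPM and a wild-type mean of 614 ± 108 CPM (SD over 3 libraries). Fkbp4, whose product FKBP52 competes with FKBP51 for the receptor complex and favours its nuclear transport, measured 106 ± 12.5 and 115 ± 2.60 CPM. Dnajb1, an Hsp40 co-chaperone, had the smallest p of this list and did not overlap between groups, at 42.3 ± 1.89 against 36.7 ± 1.84 CPM (log2 fold change 0.21, SE 0.12). Of all genes tested, 2.95% had every knockout library higher. Dnaja1 was at 125 ± 4.63 against 141 ± 22.5 CPM.

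Genes that set the hormone supply inside the cell were measured unevenly. Hsd11b1, which regenerates active corticosterone, measured 92.7 CPM in WT13, 87.8 in WT15 and 92.8 in WT17 and 83.3 CPM in KO14, 148 in KO16 and 80.1 in KO18. KO16 stood above the other 5, which lay within 80.1 to 92.8 CPM, and the log2 fold change of 0.19 (SE 0.24) was not beyond the spread. Hsd11b2, which inactivates the hormone, had 1 count over the 6 libraries, in KO14, and Serpina6, the plasma carrier of corticosterone, had 0. The other genes that passed the filter were H6pd, which supplies the cofactor of Hsd11b1 (3.93 ± 1.15 against 3.48 ± 0.508 CPM), the efflux pump gene Abcb1b (2.65 ± 0.953 against 1.80 ± 0.387 CPM), Abcb1a and Srd5a1. Of these 5, 4 were above 0 with a median of 0.19, and none was called.

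All 12 coregulator genes were measured, with 5 above and 7 below 0 and a median log2 fold change of -0.04. Tgfb1i1, a coactivator also known as Hic-5, measured 1.80 ± 0.283 against 2.57 ± 0.496 CPM, and Nrip1, a corepressor, 23.98 ± 3.54 against 26.4 ± 2.96 CPM (knockout against wild type, SD, n = 3 each). None had an unadjusted p under 0.05.

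Of 21 further genes reported to respond to glucocorticoids, 20 passed the filter, and none was called. In the knockout 7 were above and 13 below 0, with a median log2 fold change of -0.10 (edgeR). At an unadjusted p under 0.05 stood 2 genes above 0 (Dusp1 and Angptl4) and 1 below (Per1), where 0.734% and 1.03% of all genes were. Per1, a clock gene with a glucocorticoid-driven component, measured 22.6 CPM in WT13, 21.2 in WT15 and 17.2 in WT17 and 14.3 CPM in KO14, 16.8 in KO16 and 14.6 in KO18. Every knockout library was below every wild-type library (log2 fold change -0.42, SE 0.17; edgeR adjusted p = 1.00), as in 3.25% of all genes tested.

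Dusp1, a phosphatase that switches off MAP kinases, measured 68.4 CPM in KO14, 65.6 in KO16 and 36.99 in KO18 and 35.5 CPM in WT13, 32.7 in WT15 and 26.9 in WT17. Every knockout library was above every wild-type library, KO18 by little (log2 fold change 0.84, SE 0.24, edgeR unadjusted p = 0.00765, not called). KO14 and KO16 stood apart from the other 4 libraries. They are the pair with the high ribosomal RNA counts given above, and both are of month 5. The part of either in the Dusp1 level was not tested. Dusp1 is also an immediate early gene. Of the 12 measured genes of the immediate early list, 8 were above 0 at an unadjusted p under 0.05, where 0.734% of all genes were. That list was chosen with earlier results of these data known, and its link to the Dusp1 level was not tested. Angptl4, a secreted lipase inhibitor, measured 14.6 CPM in KO14, 29.4 in KO16 and 17.6 in KO18 and 13.9 CPM in WT13, 13.3 in WT15 and 11.3 in WT17. Its knockout libraries all lay above the wild type, KO14 by little (log2 fold change 0.67, SE 0.26; edgeR adjusted p = 1.00). Among the 20 further response genes that passed the filter, 3 had every knockout library higher, Dusp1 and Angptl4 among them. Every knockout library was lower for 2, Per1 among them. Over all genes tested, these shares were 2.95% and 3.25%.

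The abundant metallothionein genes, which bind zinc and are induced by glucocorticoids, had lower knockout means, with groups that overlapped. Mt1 measured 4067 ± 574 against 4912 ± 918 CPM and Mt2 1005 ± 117 against 1306 ± 244 CPM (knockout against wild type, SD, n = 3 each), with log2 fold changes of -0.27 (SE 0.19) and -0.38 (SE 0.18). Klf9, a transcription factor among the best-known glucocorticoid targets in brain, measured 124 ± 18.8 against 129 ± 11.4 CPM. Lcn2, which is strongly induced in reactive astrocytes, had 2 counts in KO18 and 0 in the other libraries.

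**Figure D4:**
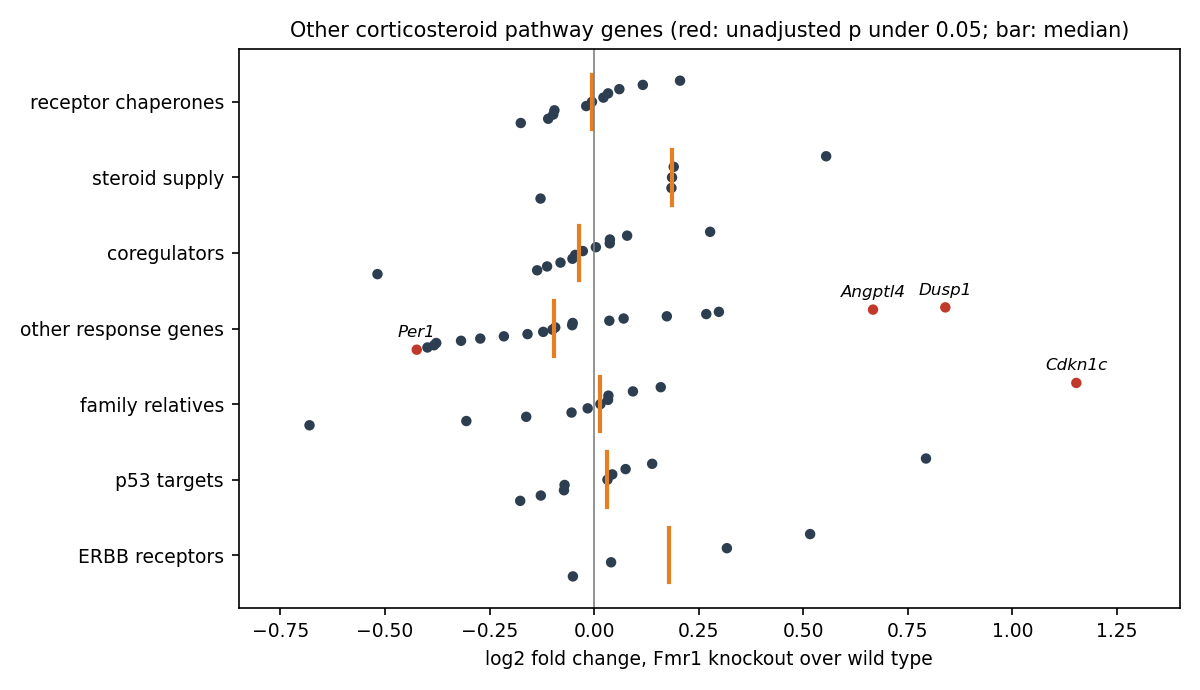
Log2 fold change of knockout over wild type (horizontal axis) for every gene of 7 lists that passed the filter, each point a gene, orange bars for list medians and red for an unadjusted p under 0.05. The named red points are Dusp1, Angptl4, Per1 and Cdkn1c, and the medians lie between -0.10 and 0.19.

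Relatives of the 9 genes were looked at in the same way. Of 13 relatives 11 passed the filter, 6 above and 5 below 0, with a median of 0.01. Cdkn1c, which encodes p57 and, like Cdkn1a, inhibits cyclin-dependent kinases, measured 2.37 CPM in KO14, 2.68 in KO16 and 3.25 in KO18 and 0.894 CPM in WT13, 1.54 in WT15 and 1.3 in WT17. Every knockout library was above every wild-type library (log2 fold change 1.15, SE 0.37; 95% interval 0.31 to 1.99; unadjusted p = 0.0130 and edgeR adjusted p = 1.00). Cdkn1c rested on few counts, 19 to 84 per library. Of all genes tested, 2.95% had every knockout library higher, and 0.734% were above 0 at an unadjusted p under 0.05. Plin2, the perilipin of most tissues outside fat, measured 26.3 ± 1.25 against 32.6 ± 8.72 CPM, with WT13 at 42.7 CPM and the other 5 libraries at 24.9 to 28.2 CPM. Sgk2 averaged under 1 CPM in both groups.

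Because Cdkn1a answers to p53 and Errfi1 acts on the EGF receptor family, those genes were read too. Of 10 p53-related genes 9 passed the filter, with a median log2 fold change of 0.03 and 0 at an unadjusted p under 0.05. Bbc3, which promotes cell death, did not overlap between groups at 1.70 ± 0.117 against 0.973 ± 0.341 CPM (knockout against wild type, SD, n = 3 each, here and below). It rested on 13 to 42 counts per library, and 2.95% of all genes tested had every knockout library higher. Phlda3 measured 18.96 ± 7.65 against 21.7 ± 2.53 CPM and Sesn2 9.40 ± 0.485 against 10.3 ± 2.05 CPM. The 4 receptor genes of the EGF family had a median of 0.18 and none at an unadjusted p under 0.05. Egfr measured 49.5 ± 7.26 against 51.2 ± 13.4 CPM, Erbb2 6.54 ± 2.05 against 4.51 ± 1.60 CPM and Erbb3 3.36 ± 2.05 against 2.79 ± 0.210 CPM.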

How the data were processed

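Unscaled expected counts per gene were deposited for 12 entries. Per the submitters' processing notes, the tools were STAR 2.5.3a, RSEM 1.3.0 and edgeR with build mm10. For the strand setting, the sources used here give nothing. A comparison table deposited by the authors gives log2 fold changes, p-values and a scaled signal, which was not used. The 2 entries of each library differed far less than libraries of 1 group did, though by somewhat more than sampling noise (chi-square per degree of freedom 1.17 to 2.34 against 17.8 to 407, median per feature 0.467 to 0.494 against 2.93 to 18.8), so they were summed, rounded and counted as 1 sample. All genes passing filterByExpr (14990) were fitted with edgeR 4.0.16 (TMM, quasi-likelihood F test, R 4.3.3) with Benjamini-Hochberg adjustment over all of them. DESeq2 1.42.0 and limma 3.58.1 (voom) were alternatives. SEs come from the F statistic, and n = 3 per group limits precision. The test was checked on simulated counts. The 9 genes and all lists were chosen with earlier results of these data known. Genes named beyond the 9 were the 3 with the smallest p in each pathway list, plus Hsp90ab1, Fkbp4, Hsd11b1, Per1, Klf9, Mt1 and Mt2, and those of nearest profile. Some genes that this rule names are not reported here. Hsd11b2, Serpina6, Lcn2, Abcb1a and Srd5a1 were added after their values were seen. Promoter letters were read from the RefSeq table of GRCm38.p6.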

Additional observations from a re-analysis of the deposited data

How the results depend on the processing

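No alternative called any of the 9 genes between genotypes. Of 126 values (9 genes, 14 alternatives) 105 kept their direction and 21 reversed. Sgk1 and Zbtb16 reversed to 0.0739 and 0.0242 with limma voom, to 0.29 and 0.12 with the month in the title as covariate, to 0.25 and 0.15 without KO14 and KO16, and to 0.12 and 0.10 with the ribosomal RNA share as covariate. Cdkn1a reversed to 0.0988 with month as covariate. With each library left out in turn, values ran from -0.33 to 0.16 for Sgk1, -0.19 to 0.077 for Zbtb16, -0.17 to 0.27 for Fkbp5, -0.28 to 0.25 for Tsc22d3 and -0.43 to 0.37 for Cdkn1a. Nr3c1, Nr3c2, Plin4 and Errfi1 kept their direction in all 14. The cause was not tested. The number of genes called was 0, against 8 with DESeq2, 6 without the filter on low counts and 1 with the ribosomal RNA share as covariate, and 0 to 2 with each library left out (2 without KO18, 1 without WT15). The month comparison called 0 genes, against 1554 without the filter, 1123 with DESeq2, 69 with voom, 90 without the ribosomal features, and 0 to 675 with each library left out (675 without WT15, 98 without WT17, 5 without KO18, 4 without WT13). The month difference kept its direction for Sgk1, Fkbp5, Zbtb16, Tsc22d3 and Plin4. With each library left out it ran from -0.32 to 0.044 for Nr3c1, -0.21 to 0.23 for Nr3c2, -0.19 to 0.11 for Errfi1 and -0.27 to 1.22 for Cdkn1a. No paired analysis was possible because the library numbers are not shared between genotypes. Depth limits Plin4 and Cdkn1a most, with as few as 16 and 20 counts in a library.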
